A study of Homo sapiens with 12 samples.

Results

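The MHC class I antigen presentation genes described here were 9 rows of the deposited expression table, taken by symbol from 54261 rows. They were B2M, HLA-B, HLA-C, HLA-E, HLA-F, TAP1, TAP2, TAPBP and NLRC5. All 9 were found and all 9 reached the level needed for testing, an FPKM (fragments per kilobase of gene length, scaled to sequencing depth) of at least 1 in at least 3 libraries. The cells were BON-1, an established human pancreatic neuroendocrine tumour line, with polyA RNA sequenced in 12 libraries. There were 3 libraries of BON-1 alone and 3 of each co-culture with CAFs (cancer-associated fibroblasts), mixed 10:2, 10:4 or 10:6 with BON-1 named first. Flow cytometry was used to take the BON-1 cells out of co-culture. The protocol text is the same for BON-1 alone, so whether those cells were also sorted is not clear. No label gives the origin of the CAFs, the time in co-culture or the purity of the sort. Nothing says that the libraries of a group came from separate cultures, so p-values measure the spread between these libraries, which may be technical.

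MHC class I molecules carry peptides from inside the cell to its surface, where CD8 T cells and natural killer cells inspect them. A polymorphic heavy chain folds with the light chain beta-2-microglobulin (B2M) in the endoplasmic reticulum. The transporter TAP1/TAP2 pumps peptides in from the cytosol, and tapasin (TAPBP) bridges the transporter to waiting heavy chains. Interferons raise these genes through IRF factors, NF-kB acts at an upstream enhancer, and NLRC5 acts with the RFX, CREB and NF-Y proteins at a conserved X and Y box module. Many neuroendocrine and other tumours show little class I at the surface, and the RNA measured here does not report surface protein.

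Motifs of the X and Y box module and its neighbouring elements were looked for in the proximal promoters. These are shown for the light chain, both classical heavy chains among the members and a transporter gene. That transporter gene passed in no comparison of the values as deposited. RefSeq promoters on GRCh38.p14 were matched for 7 of 9 members, each running from 250 bases before to 50 after the annotated start. Capitals mark every match, on either strand, of 4 short motifs: AANNGAAA (the core bound by IRF proteins), the NF-kB type motif (GGGA and CC with any 4 bases between them), TGACG (the CRE-like part of the X box) and CCAATC (the CCAAT or Y box, bound by NF-Y). The promoters of B2M (chr15:44711267-44711566, plus strand), HLA-B (chr6:31357130-31357429, minus strand), HLA-C (chr6:31272043-31272342, minus strand) and TAP1 (chr6:32853655-32853954, minus strand) read as follows, 5′ to 3′.
B2M: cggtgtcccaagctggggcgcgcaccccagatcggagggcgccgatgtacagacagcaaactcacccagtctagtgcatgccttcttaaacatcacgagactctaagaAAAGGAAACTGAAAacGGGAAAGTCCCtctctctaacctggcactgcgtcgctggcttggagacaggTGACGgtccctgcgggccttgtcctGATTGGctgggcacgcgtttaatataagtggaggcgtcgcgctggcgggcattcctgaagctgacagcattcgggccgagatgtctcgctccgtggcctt
HLA-B: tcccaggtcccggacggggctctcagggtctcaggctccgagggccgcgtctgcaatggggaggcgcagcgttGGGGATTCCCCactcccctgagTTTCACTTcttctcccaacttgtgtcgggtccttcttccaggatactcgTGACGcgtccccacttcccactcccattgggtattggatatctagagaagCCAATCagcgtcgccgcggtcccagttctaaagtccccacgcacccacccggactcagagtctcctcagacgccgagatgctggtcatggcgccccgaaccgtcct
HLA-C: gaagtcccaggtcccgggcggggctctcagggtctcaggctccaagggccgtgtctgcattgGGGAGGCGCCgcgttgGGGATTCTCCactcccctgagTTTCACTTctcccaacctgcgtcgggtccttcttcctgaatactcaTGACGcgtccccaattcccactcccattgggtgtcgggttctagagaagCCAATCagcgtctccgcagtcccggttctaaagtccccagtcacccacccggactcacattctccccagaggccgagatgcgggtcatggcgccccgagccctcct
TAP1: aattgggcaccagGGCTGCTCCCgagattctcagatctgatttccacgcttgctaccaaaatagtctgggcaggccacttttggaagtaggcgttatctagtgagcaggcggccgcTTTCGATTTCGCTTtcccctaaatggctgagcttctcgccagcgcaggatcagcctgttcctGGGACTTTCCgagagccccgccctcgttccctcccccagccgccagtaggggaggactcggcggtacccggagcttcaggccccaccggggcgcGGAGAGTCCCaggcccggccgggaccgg
B2M, HLA-B and HLA-C each held all 4 motifs. Counted from the start, the CCAATC match began at -56 in HLA-B and in HLA-C, and the TGACG match at -106 in HLA-B and at -105 in HLA-C. In B2M these matches began at -50 and -75, with CCAATC on the other strand. Matches of different motifs did not overlap in these 4 promoters, but in B2M, HLA-B and TAP1 matches of the same motif overlapped each other. TAP1 held AANNGAAA and NF-kB type matches and no TGACG or CCAATC. TAP2 held AANNGAAA and TGACG, TAPBP held AANNGAAA and the NF-kB type motif, and HLA-F held AANNGAAA and CCAATC. Of 27305 promoters of this length, 23.19% held AANNGAAA, 25.07% the NF-kB type motif, 24.94% TGACG and 15.65% CCAATC, and 47 (0.17%) held all 4. The motifs were chosen after the members' promoters had been read, so the matches are a description of these letters and not evidence of binding.

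The light chain B2M rose at every ratio of CAFs in the values as deposited, and its change turned to below 0 at 10:2 and 10:4 once trends on gene length and GC content were removed. B2M had 276.6, 273.6 and 268.2 FPKM in BON-1 alone, 303.9, 303.2 and 328.9 FPKM at 10:2, 361.5, 358.1 and 328.8 FPKM at 10:4, and 366.5, 373.9 and 385.0 FPKM at 10:6. Each co-culture library was above all 3 libraries of BON-1 alone, and those of 10:2 and 10:4 overlapped narrowly. Its mean was 375.1 ± 9.33 FPKM at 10:6, against 272.8 ± 4.23 FPKM in BON-1 alone (SD, n = 3 each). The log2 change of FPKM + 1 was 0.46 ± 0.0414 (SE, limma adjusted p = 5.91e-06), a fold of 1.37. At 10:2 the log2 change was 0.19 ± 0.0414 (adjusted p = 0.00537), and at 10:4 it was 0.36 (adjusted p = 3.91e-05). B2M was also higher at 10:6 than at 10:2, by 0.27 on the log2 scale (adjusted p = 0.00586). The differences of 10:4 from 10:2 (adjusted p = 0.0567) and of 10:6 from 10:4 (adjusted p = 0.314) did not pass. In bulk libraries like these, more cells expressing a gene and more RNA per cell cannot be told apart.

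HLA-B, a classical heavy chain, rose at the highest ratio. HLA-B had 40.0, 40.1 and 42.1 FPKM in BON-1 alone, 39.2, 40.9 and 39.3 FPKM at 10:2, 46.0, 41.7 and 43.6 FPKM at 10:4, and 50.9, 47.3 and 47.6 FPKM at 10:6. The 3 libraries of 10:6 were above the other 9, while BON-1 alone overlapped with 10:2 and with 10:4. The mean was 48.6 ± 2.03 FPKM at 10:6, against 40.7 ± 1.19 FPKM in BON-1 alone (SD, n = 3 each), and the log2 change was 0.25 ± 0.0432 (SE; adjusted p = 0.000628 by limma). Against 10:2 the change at 10:6 was 0.28 (adjusted p = 0.00575). At 10:4 the change against BON-1 alone was 0.10 and did not pass (adjusted p = 0.0752), and at 10:2 it was -0.03 (adjusted p = 0.615).

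HLA-C, another classical heavy chain and the more abundant of the pair in these cells, moved less. HLA-C had 129.9, 125.5 and 126.7 FPKM in BON-1 alone, 119.3, 125.7 and 119.3 FPKM at 10:2, 131.5, 125.7 and 123.7 FPKM at 10:4, and 134.1, 131.2 and 131.7 FPKM at 10:6. The libraries of 10:6 were above those of BON-1 alone and of 10:2, and within the range of 10:4 at their lower end. The test of 10:6 against BON-1 alone did not pass (log2 change 0.05 ± 0.0312 SE, limma adjusted p = 0.173), with a 95% interval of the fold from 0.991 to 1.09. HLA-C was higher at 10:6 than at 10:2, by 0.12 ± 0.0312 (adjusted p = 0.0382), and that call was kept in 4 of the 12 fits that left out a library, with adjusted p from 0.0245 to 0.106. It was lost without any 1 library of BON-1 alone or of 10:6, and without replicate 1 or 3 of 10:2. It was also lost with no filter on low values (adjusted p = 0.071), with median-of-ratios scaling (0.0808) and with no variance trend (0.0892).

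HLA-E and HLA-F are non-classical heavy chains with little polymorphism. HLA-E, which presents leader peptides of other class I chains to natural killer cells, had 20.9, 21.4 and 21.8 FPKM in BON-1 alone, 18.9, 19.7 and 20.4 FPKM at 10:2, 20.0, 19.4 and 20.4 FPKM at 10:4, and 23.4, 21.7 and 22.03 FPKM at 10:6. All libraries of 10:2 and 10:4 were below those of BON-1 alone, and 10:6 overlapped with BON-1 alone. None of the 3 comparisons with BON-1 alone passed, with log2 changes of -0.11 at 10:2 (limma adjusted p = 0.0587), -0.09 at 10:4 (0.0789) and 0.06 at 10:6 (0.218). HLA-E was higher at 10:6 than at 10:2, by 0.18 ± 0.0405 (SE, adjusted p = 0.0282), a call kept in 7 of the 12 fits that left out a library, with adjusted p from 0.0304 to 0.0836. It was lost without any 1 library of 10:6, and without replicate 1 or 2 of 10:2. HLA-F was low, with 2.15 to 2.93 FPKM and 91 to 174 reads per library. Its mean was 2.82 ± 0.0980 FPKM at 10:6, against 2.41 ± 0.170 FPKM in BON-1 alone (SD, n = 3 each), and the groups did not overlap. The test of HLA-F did not pass (log2 change 0.16 ± 0.0802 SE, adjusted p = 0.114), and with quantile normalization the change was -0.03 (adjusted p = 0.814).

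**Figure D1:**
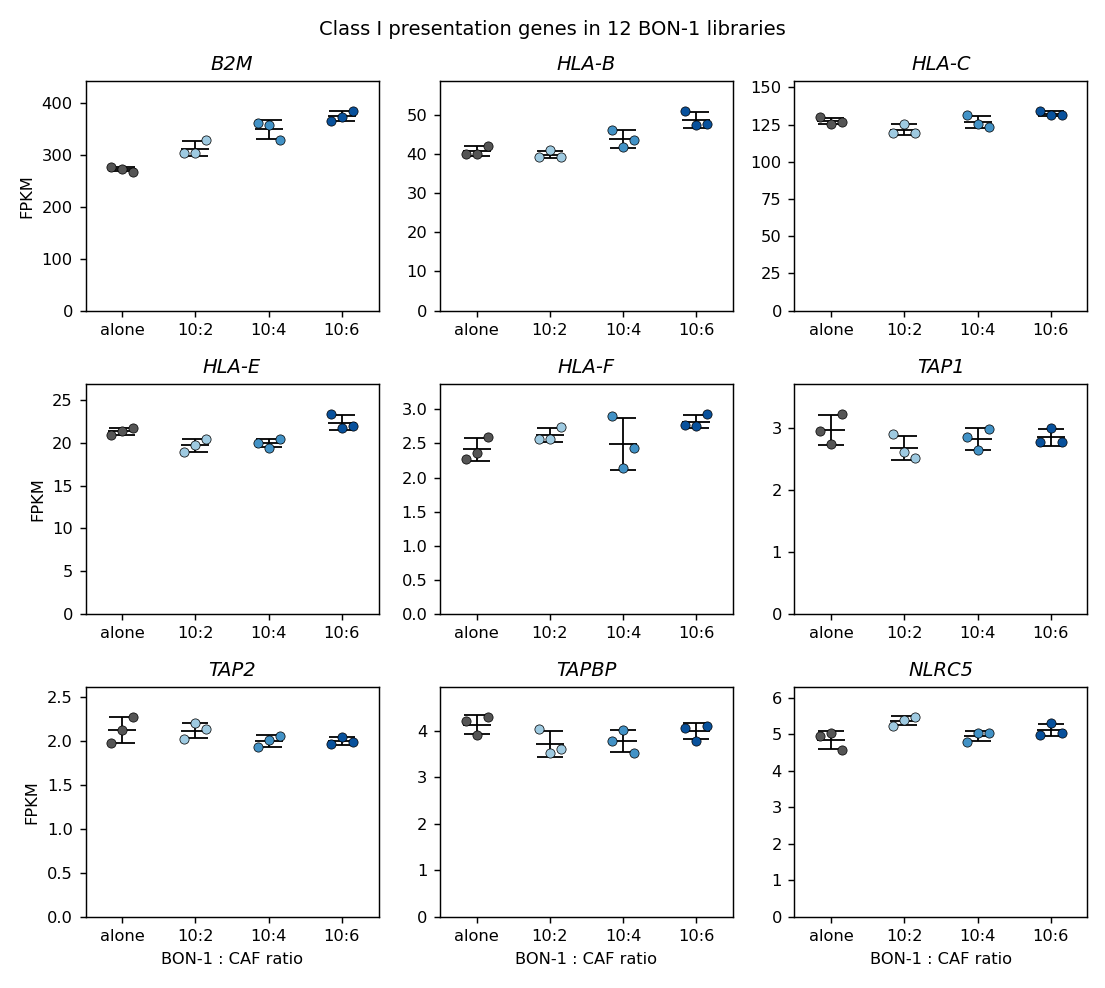
FPKM of the 9 class I presentation genes in each library of the 4 groups, from BON-1 alone to the 10:6 co-culture. Points are libraries and bars are the mean ± SD of 3. B2M was above BON-1 alone in every co-culture library, the 10:6 libraries of HLA-B lay above all others, and TAP1, TAP2 and TAPBP overlapped between groups.

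The peptide loading genes passed in no comparison of the values as deposited. TAP1 had 2.95, 2.74 and 3.22 FPKM in BON-1 alone, 2.89, 2.60 and 2.52 FPKM at 10:2, 2.84, 2.63 and 2.99 FPKM at 10:4, and 2.77, 2.99 and 2.76 FPKM at 10:6. TAP2, its partner in the transporter, lay between 1.93 and 2.27 FPKM over all libraries, and TAPBP between 3.52 and 4.29 FPKM. For each of these genes the libraries of every co-culture overlapped with those of BON-1 alone. At 10:6 against BON-1 alone the 95% interval of the fold ran from 0.872 to 1.08 for TAP1, from 0.872 to 1.06 for TAP2 and from 0.882 to 1.07 for TAPBP, on the scale of FPKM + 1. With quantile normalization all 3 were called lower at 10:6, by log2 changes of -0.23, -0.24 and -0.21 (limma adjusted p = 0.0152, 0.00908 and 0.0158). All 3 were also called lower at 10:4 with it (limma adjusted p = 0.0132, 0.00811 and 0.00511). At 10:2 TAP1 and TAPBP were called lower (0.0232 and 0.0184) and TAP2 was not (0.12).

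NLRC5, the transactivator of class I genes, also did not pass in the values as deposited. NLRC5 had 4.94, 5.03 and 4.56 FPKM in BON-1 alone, 5.23, 5.40 and 5.46 FPKM at 10:2, 4.79, 5.03 and 5.03 FPKM at 10:4, and 4.98, 5.30 and 5.03 FPKM at 10:6. The libraries of 10:2 were above those of BON-1 alone, and those of 10:4 and 10:6 overlapped with them. The log2 change was 0.12 ± 0.0496 (SE, limma adjusted p = 0.0846) at 10:2, 0.03 (0.694) at 10:4 and 0.06 (0.316) at 10:6. With quantile normalization the change at 10:4 was -0.13 (adjusted p = 0.0481).

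Counted over the members, 1 of 9 rose at 10:2 against BON-1 alone, where 19.9% of all 13312 tested genes rose, and 1 of 9 rose at 10:4, where 27.3% of all tested genes rose. At 10:6 against BON-1 alone 2 of 9 rose, where 29.7% of all tested genes rose, so the members' share was not above the background. None fell in these 3 comparisons, where 7.46%, 18.1% and 18.3% of tested genes fell. At an unadjusted limma p under 0.05, 2, 1 and 0 members were lower at 10:2, 10:4 and 10:6, beside 14.3%, 22.9% and 22% of tested genes. Limma-voom on reads recovered from the FPKM values called 1, 0 and 0 lower, beside 9.65%, 20.2% and 20.4% of tested genes. Between ratios, 4 of 9 members rose at 10:6 against 10:2, all of them chains of the class I molecule itself, where 4.52% of tested genes rose. For 10:4 against 10:2 and for 10:6 against 10:4 limma called 0 members, where 2.88% and 0.331% of tested genes were called. At an unadjusted p under 0.05 those counts were 2 and 3, all higher, beside 13.5% and 6.88% of tested genes that were higher. Limma-voom called 2 higher in each, beside 6.28% and 0.729% of tested genes. The moderated F test over the 4 groups called B2M, HLA-B, HLA-C and HLA-E, 4 of 9 members, against 44.4% of tested genes. At 10:6, 4 members lay wholly above BON-1 alone and 0 wholly below, where 33.8% and 24.5% of tested genes did so. Against 10:2, 5 members lay wholly above, where 17.6% of tested genes did. The comparisons with BON-1 alone share the same 3 control libraries.

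Fold changes against BON-1 alone went with the GC content of the transcripts, with B2M at the low end of that scale and most other members at the high end. The longest GENCODE 29 transcript of B2M had a GC content of 40.6%, TAP2 49.1%, HLA-E 54.8%, and the remaining members 57.5% to 62.7%. At 10:6 the log2 change of B2M, 0.46, stood beside a median of 0.40 for 2274 tested genes within 2.5 points of its GC content. That of HLA-B, 0.25, stood beside a median of -0.14 for 1955 such genes, of which 98.0% had a lower value. HLA-F and HLA-C, at 0.16 and 0.05, stood beside medians of -0.13 and -0.15, and TAP1 and TAPBP, at -0.05 and -0.04, beside -0.13 for each.

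**Figure D2:**
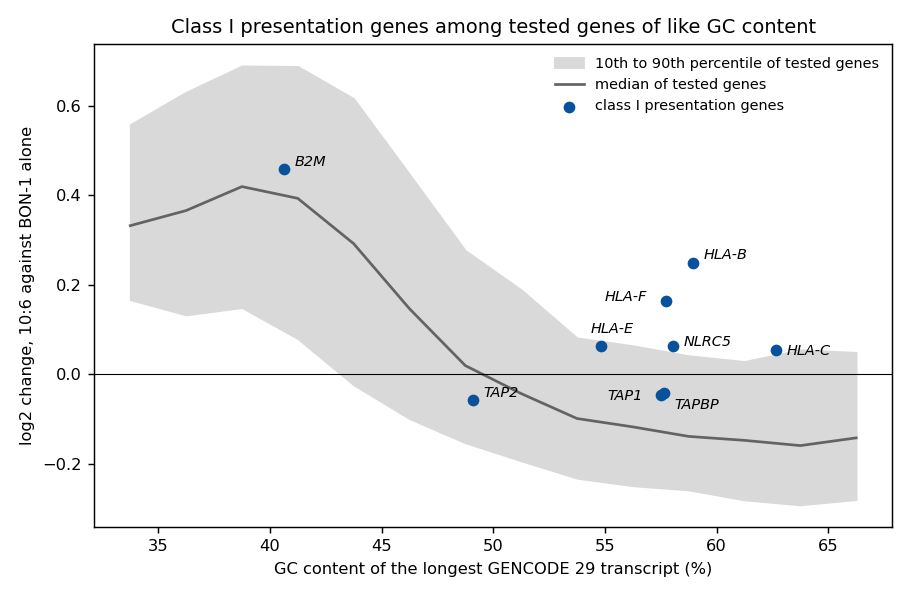
Log2 change at 10:6 against BON-1 alone (vertical axis) by GC content of the longest transcript (horizontal axis, percent). The grey line is the median of tested genes in steps of 2.5 points, the band runs from their 10 to their 90 percentile, and the blue points are the class I presentation genes. B2M lay close to the line, while HLA-B and HLA-F lay well above the band and NLRC5 and HLA-C just above it.

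When smooth trends on gene length and GC content were taken out of each library, the calls changed places. The B2M changes became -0.07 at 10:2, -0.04 at 10:4 and 0.08 at 10:6, none of which passed (limma adjusted p = 0.279, 0.512 and 0.147). The HLA-B change at 10:6 became 0.34 (adjusted p = 0.000126), and that at 10:4 became 0.20 and passed (adjusted p = 0.00464). HLA-C and HLA-F then passed at 10:6, with changes of 0.15 (adjusted p = 0.00515) and 0.27 (adjusted p = 0.0242). This made 0, 1 and 3 of 9 members rising at 10:2, 10:4 and 10:6, where 6.05%, 10.6% and 11.6% of 12094 genes with both values rose. TAP1, TAP2, TAPBP, HLA-E and NLRC5 did not pass in these 3 comparisons with either treatment. At 10:6 against 10:2, HLA-B, HLA-C and HLA-E were called with the trends removed (adjusted p = 0.0018, 0.02 and 0.0227), 3 of 9 members where 1.66% of the genes rose, and B2M had adjusted p = 0.0535. Over all genes called, the share that was higher was 72.8%, 60.2% and 61.8% at 10:2, 10:4 and 10:6 as deposited, and 52.3%, 45.9% and 45.1% with the trends removed. With quantile normalization it was 61.9%, 43.7% and 44.9%. Whether the trend arose in the cells or in the libraries was not tested.

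**Figure D3:**
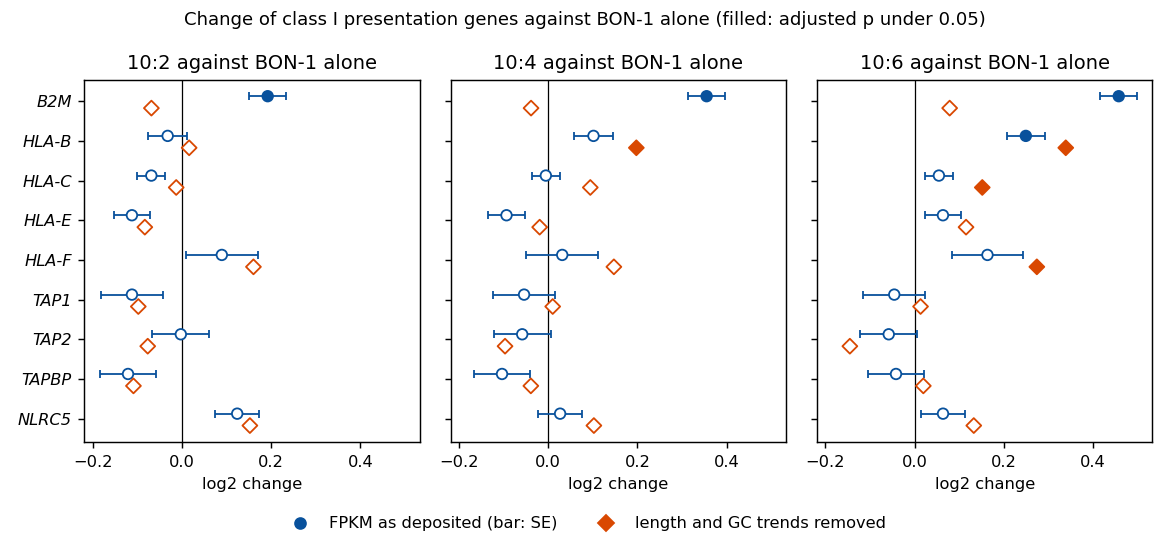
Log2 change of each class I presentation gene against BON-1 alone at 10:2, 10:4 and 10:6. Blue circles are FPKM as deposited with the SE, orange diamonds are values with length and GC trends removed, and filled symbols have an adjusted p under 0.05. B2M was called in all 3 panels as deposited and in none with the trends removed, while HLA-B at 10:6 was called both ways.

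Levels of different members can be compared only with care, because of the lengths behind the FPKM values. The length used for each gene was recovered from the values, which are whole numbers of reads divided by length and depth. HLA-B had a length of 4833 bases, although its RefSeq locus on chromosome 6 (31353875 to 31357179) spans 3305 bases. HLA-C (31268749 to 31272092), HLA-E (30489509 to 30494194), TAP1 (32845209 to 32853704), TAP2 (32821831 to 32838739) and TAPBP (33299694 to 33314078) also had lengths above the span of their locus, with 4753, 5324, 11808, 22594 and 15057 bases. For TAP1, TAP2 and TAPBP the length was 3.99, 3.98 and 4.01 times that of the longest transcript. B2M on chromosome 15 (44711517 to 44718145) and NLRC5 on chromosome 16 (56989557 to 57083520), both outside the MHC, had 1.18 and 1.02 times that of the longest transcript. Between the start of HLA-F (29723434, ending at 29738532) and the end of TAPBP, 39 of 85 tested genes (45.88%) had a length above their span, against 226 of 12032 other tested genes (1.88%). The annotation the authors used, and how reads with several possible places were treated, are not stated in any source at hand, so the cause was not tested. A wrong length scales the FPKM of a gene alike in all libraries. On the scale of FPKM + 1 it still alters the fold change of a low gene. The trend removal used these same lengths, so its values depend on them too.

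**Figure D4:**
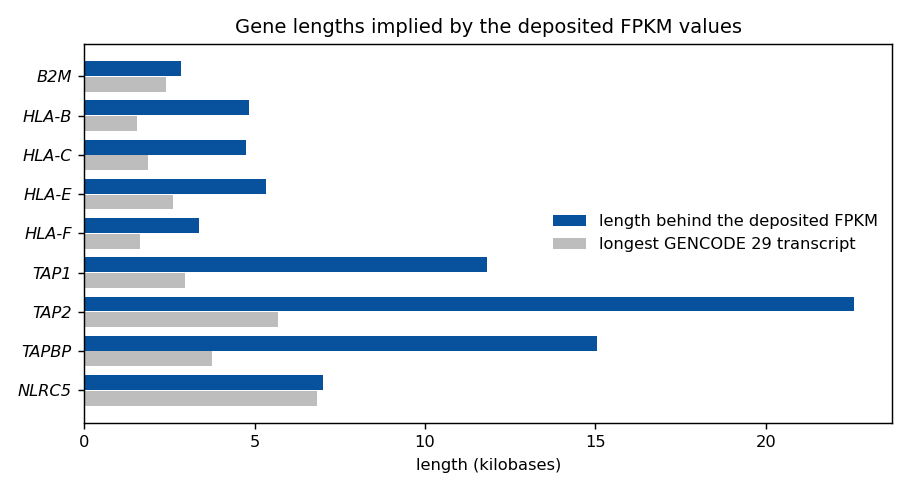
Length behind the deposited FPKM of each class I presentation gene (blue) and length of its longest GENCODE 29 transcript (grey), in kilobases. The blue bar was about 4 times the grey for TAP1, TAP2 and TAPBP, and close to it for B2M and NLRC5.

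On the deposited FPKM scale the order of mean levels over the 12 libraries was B2M (327.4), HLA-C (127.0), HLA-B (43.2), HLA-E (20.8), NLRC5 (5.07), TAPBP (3.90), TAP1 (2.83), HLA-F (2.59) and TAP2 (2.06). B2M stood at percentile 98.5 of the mean levels of tested genes, and TAP2 at percentile 20.3. With the same reads per kilobase of the longest transcript, NLRC5 moved to the last place at 5.19, and TAPBP, TAP1 and TAP2 came to 15.6, 11.3 and 8.18. The order of the 4 most abundant chains, B2M, HLA-C, HLA-B and HLA-E, was the same on both scales. Libraries held 11703624 to 21882537 assigned reads. B2M drew 9858 to 17035 reads per library, HLA-B 2215 to 4237, and TAP1 392 to 707. Class I heavy chains are near copies of each other and differ between people, and BON-1 need not match the reference, so the division of reads among them is uncertain. In GENCODE 29 the HLA-B gene also spans HLA-C on the same strand, although their RefSeq loci lie apart, and HLA-C had group means of 121.4 to 132.4 FPKM against 39.8 to 48.6 FPKM for HLA-B. How reads in that overlap were assigned is not given. TAP1 overlaps PSMB9 and PSMB8-AS1 on the opposite strand and HLA-F overlaps HLA-F-AS1, all with group means under 1 FPKM, and strand use in counting is not given.

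Other genes of peptide supply and folding went both ways. Of 22 tested genes of a list of 26 other pathway genes, 11 rose and 4 fell at 10:6 against BON-1 alone, where 29.7% of all tested genes rose and 18.3% fell. Their median log2 change was 0.08, beside 0.02 over all tested genes. CANX, the chaperone calnexin that holds new heavy chains, was at 140.7 ± 4.71 FPKM at 10:6, against 79.3 ± 2.10 FPKM in BON-1 alone (SD, n = 3 each), a log2 change of 0.82 (limma adjusted p = 2.03e-07). TPP2, a cytosolic peptidase, UGGT1, the glucosyltransferase that checks folding, and HSPA5, the chaperone BiP, rose by 0.74, 0.53 and 0.29. After trend removal 6 were called higher and 4 lower, where 11.6% and 14.1% of all genes were, and the changes of CANX, TPP2, UGGT1 and HSPA5 were 0.42, 0.31, 0.24 and 0.10, each with an adjusted p under the threshold. PSMB9, the immunoproteasome subunit that shares the TAP1 promoter region, had group means of 0.615 to 0.699 FPKM and was not tested, and HLA-G was listed at 0 in all co-culture libraries. PSMB9 and HLA-G were chosen for mention after their values were seen.

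Among 20 tested regulators of class I transcription, 9 rose and 3 fell at 10:6 against BON-1 alone, where 29.7% of all tested genes rose and 18.3% fell. Their median log2 change was 0.20, beside 0.02 over all tested genes, and after trend removal it was 0.0048, beside -0.02 over all genes. EZH2 and SUZ12, of the Polycomb complex that silences class I genes in some tumours, rose by 0.39 and 0.63 on the log2 scale, and DNMT1, a DNA methyltransferase, fell by 0.20. After trend removal 3 were called higher and 3 lower, where 11.6% and 14.1% of all genes were. DNMT1 kept a change of -0.14 (limma adjusted p = 0.00341), while EZH2 had 0.03 (adjusted p = 0.649) and SUZ12 0.19 (adjusted p = 0.0583). Among those called higher were IRF9 and IRF1, interferon response factors named after their values were seen, with changes of 0.41 (adjusted p = 0.000907) and 0.32 (adjusted p = 0.0241). NFYC and NFKB1, also named after their values were seen, were the other genes called lower, at -0.16 each.

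Of 9 tested interferon receptors, kinases and inhibitors, 5 rose and 1 fell at 10:6 against BON-1 alone, where 29.7% of all tested genes rose and 18.3% fell. The receptor chains IFNAR1 and IFNGR1 rose by 0.57 and 0.53 on the log2 scale and the kinase JAK1 by 0.40, while the kinase TYK2 fell by 0.23. With the trends removed JAK1 (0.20, limma adjusted p = 0.00414) and TYK2 (-0.13, adjusted p = 0.0327) passed and no other. Of 20 tested interferon-stimulated genes, 6 rose and 0 fell as deposited, a share of risers like the 29.7% of all tested genes, and their median log2 change was 0.09. After trend removal 5 were called higher and 0 lower, where 11.6% and 14.1% of all genes were. DTX3L and PARP9, partners in a ubiquitin ligase complex, rose by 0.58 and 0.57, EIF2AK2, the RNA-sensing kinase PKR, by 0.67, and the GTPase GBP2 by 0.34. GBP2 did not pass with the trends removed (adjusted p = 0.579). IFI35 and IFITM2, named after their values were seen, passed after trend removal, at 0.39 and 0.25. The other 20 of the 40 listed interferon-stimulated genes were too low to test.

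Genes of a list of natural killer receptor ligands, which also held CD47, went both ways. Of 10 tested, 2 rose and 2 fell at 10:6 against BON-1 alone, where 29.7% of all tested genes rose and 18.3% fell. The stress ligand ULBP1 rose by 0.50 and CD47, a signal against engulfment, by 0.25 on the log2 scale, while BAG6 and PVR fell by 0.24 and 0.19. After trend removal 0 were called higher and 2 lower, where 11.6% and 14.1% of all genes were. The CD47 change was then -0.19 (limma adjusted p = 0.0373), turned round from its value as deposited. None of 11 MHC class II genes and partners was high enough to test, and their summed level was 0.255 to 1.47 FPKM over all libraries.

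**Figure D5:**
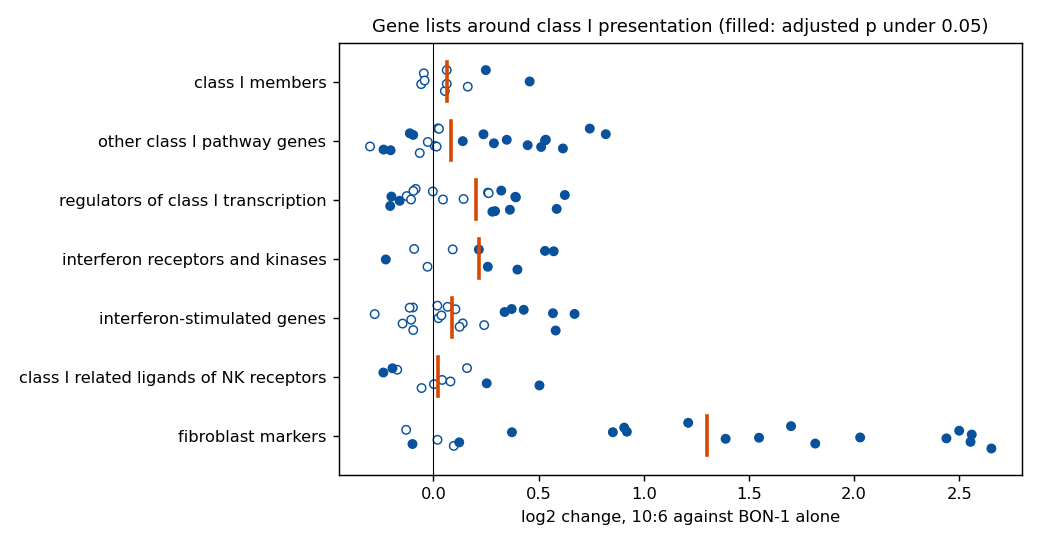
Log2 change at 10:6 against BON-1 alone for the tested genes of each list. Each point is a gene, filled where the adjusted p was under 0.05, and the orange bar is the list's median. B2M and HLA-B were the class I members with filled points, and the fibroblast markers reached 2.65.

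Fibroblasts express class I genes too, and their markers moved with the same comparisons. Of 20 tested fibroblast markers, 11, 16 and 16 rose at 10:2, 10:4 and 10:6 against BON-1 alone, and 0, 0 and 1 fell, where 19.9%, 27.3% and 29.7% of all tested genes rose. COL1A1, the type I collagen chain, was at 9.22 ± 0.148 FPKM in BON-1 alone, 18.0 ± 0.273 FPKM at 10:2, 37.4 ± 1.31 FPKM at 10:4 and 54.4 ± 0.794 FPKM at 10:6 (SD, n = 3 each). The summed level of the 25 markers was 2630 to 2713 FPKM in BON-1 alone, 2495 to 2578 FPKM at 10:2, 2609 to 2838 FPKM at 10:4 and 2786 to 3080 FPKM at 10:6. Most of that sum was S100A4, a calcium-binding protein that was high in BON-1 alone too, at 2315 ± 145 FPKM at 10:6, against 2281 ± 43.9 FPKM in BON-1 alone (SD, n = 3 each). The sum therefore does not follow the rises of the collagens, and no marker was at 0 throughout any group. The part of fibroblast RNA in the B2M and HLA-B changes was not tested. Of 17 leukocyte and endothelial markers 4 were tested. At 10:6 against BON-1 alone 2 of them rose and 1 fell, where 29.7% and 18.3% of all tested genes did. The tested 4 were CDH5 (25.3 to 29.5 FPKM over all libraries), KDR (10.6 to 13.4), CD68 (5.34 to 7.81) and LYZ (1.45 to 3.27). Among those too low to test, the leukocyte marker PTPRC had at most 0.121 FPKM in any library. Of 15 tested neuroendocrine markers, 7 rose and 5 fell at 10:6 against BON-1 alone, where 29.7% and 18.3% of all tested genes did. SCG2, the granule protein secretogranin II, was at 1401 ± 7.84 FPKM at 10:6, against 746.7 ± 5.35 FPKM in BON-1 alone, and CHGA, chromogranin A, at 975.1 ± 39.2 FPKM at 10:6, against 1347 ± 25.9 FPKM in BON-1 alone (SD, n = 3 each). SCG2, CHGA and S100A4 were chosen for mention after their values were seen.

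The genes whose profile over the 12 libraries was most like that of a member were found among 7057 other protein-coding genes with a mean of at least 5 FPKM, by the root mean square difference of centred log2 values. For B2M they were ARPC3 (0.0410), PAICS (0.0468) and RPL6 (0.0479), against an SD of B2M itself of 0.187. For HLA-B they were NSMCE4A (0.0459), C12orf75 (0.0502) and PRSS2 (0.0542), against an SD of 0.123. For TAP1 they were ZDHHC3 (0.0372), PTK7 (0.0418) and PDE2A (0.0468), against an SD of 0.0740. The genes nearest to B2M had GC contents of 38.2% to 42.8%, beside 40.6% for B2M itself.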

How the data were processed

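PolyA RNA of BON-1 cells was sequenced in 12 libraries, 3 for each of 4 groups taken from the sample titles, and columns were matched by the code in each title. The submitters' processing notes name hg38, featureCounts and HISAT2, without version or role. The authors deposited a table of FPKM values for 54261 genes. Depth was recovered from it: with gene lengths up to 200000 bases, 99.9738% of 267349 nonzero values were whole reads within 1e-07. No library repeated another of its group (chi-square per degree of freedom 1.64 to 4.35 between pairs).

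The 13312 genes that reached 1 FPKM in 3 or more libraries were modelled on the log2(FPKM + 1) scale with limma 3.58.1 in R 4.3.3. The 12 libraries shared a single fit with a mean for each group, and the moderated variance followed a trend on level. The Benjamini-Hochberg adjustment covered every tested gene of a comparison and the threshold was 0.05. A fold on this scale understates the change of low genes. Trend removal fitted natural splines on GC content and log2 length to each library's deviations from the gene means, for 12094 genes (90.85%). As an alternative, limma-voom on the recovered reads called 4343, 6544 and 6962 genes at 10:2, 10:4 and 10:6 against BON-1 alone, against 3648, 6046 and 6394 for the FPKM fit. Promoters and loci came from RefSeq tables on GRCh38.p14 and GC content from GENCODE 29. Alternatives also changed the pseudocount, filter, scaling, variance model, libraries and replicate block. Named list genes are, per list, the 4 called ones of smallest p in the 10:6 comparison with BON-1 alone; others are marked where named, and 1 gene under this rule is not reported here. The members and lists were chosen with earlier results of these data known. Tables and figures were made with matplotlib 3.10.9, numpy 2.4.6 and pandas 2.3.3 under Python 3.11.15.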

Additional observations from a re-analysis of the deposited data

How the results depend on the processing

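The rises of B2M at 10:6 and of HLA-B at 10:6 against BON-1 alone and against 10:2 passed in all 12 fits that left out a library, as did the rises of B2M at 10:2 and 10:4. HLA-B at 10:4 passed without replicate 2 of 10:4 (adjusted p = 0.0341), and HLA-E fell at 10:2 without replicate 3 of 10:2 (0.0487) or replicate 1 of 10:6 (0.0472). Leaving out single libraries gave 1 to 2 members called at 10:2 and at 10:4 against BON-1 alone, 2 at 10:6, 0 to 1 for 10:4 against 10:2, 0 for 10:6 against 10:4, 2 to 4 for 10:6 against 10:2, and 3 to 4 in the F test. With all 12 libraries 27.4%, 45.4%, 48.0%, 2.88%, 0.331%, 6.97% and 44.4% of all genes were called, in that order. Fits with 2 members had 19.8% and 27.8% at 10:2, and 38.2% at 10:4. For 10:4 against 10:2, fits with 1 member had 1.74% and 1.96%. For 10:6 against 10:2, fits with 2 members had 1.64% to 6.59%. With length and GC trends removed, 0 members were called at 10:2, where 11.6% of all genes were called, or 9.88% with the replicate block. With or without the block, B2M turned to -0.0687 at 10:2 and -0.0386 at 10:4 on the log2 scale. Quantile normalization gave 3 members at 10:2 (1 higher, 2 lower), 6 at 10:4 (2 and 4), 6 at 10:6 (3 and 3) and 7 in the F test, where 22.3%, 48.4%, 48.8% and 45.2% of all genes were called, with TAP1, TAP2 and TAPBP lower at 10:6 and NLRC5 turned to -0.127 at 10:4. Its median change over all genes was -0.0587 at 10:6, and the cause was not tested. Median-of-ratios scaling gave 2 at 10:2, with HLA-E lower (28.8% of all genes called). Limma-voom gave 2 at 10:2 (HLA-E lower), 2 at 10:4, and 2 each for 10:4 against 10:2 and 10:6 against 10:4, where 32.6%, 49.2%, 7.84% and 2.07% of all genes were called. A stricter filter of 5 FPKM gave 1 for 10:4 against 10:2 among 5 members tested (5.46% of all genes). For 10:6 against 10:2, a fit of those groups alone gave 2, with HLA-C and HLA-E not called (2.33% of all genes). Replicate numbers mark no stated pairing, and same-numbered libraries did not deviate together (correlation -0.0427 to 0.0458 over 18 pairs). With the replicate block 2 members were called for 10:6 against 10:2, B2M and HLA-B (4.07% of all genes), and the block moved no other count of members by over 1.5 times. HLA-F rested on at most 174 reads per library, which limits its precision.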
